A study of Mus musculus with 4 samples.

Results

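The 8 genes described here encode the parts of endothelial caveolae and of their diaphragms: the caveolins Cav1 and Cav2, the coat proteins Cavin1, Cavin2 and Cavin3, the membrane ATPases Ehd2 and Ehd4, and the diaphragm protein Plvap. They were chosen by name, and all 8 were found among the 30450 genes shared by the files of both tissues. Levels are given per tissue, Oct4 genotype and vessel type, in cells with at least 500 UMIs (unique molecular identifiers, which count captured transcript molecules) and at most 15% mitochondrial UMIs. The cells were eYFP+ endothelial cells sorted from the aorta (arch, thoracic and abdominal portions) or the left lung lobe of female C57/B6J mice, of which 3 were EC-Oct4Δ/Δ (KO) and 2 were EC-Oct4+/+ (WT). All of these mice, KO and WT, carried the endothelial lineage-tracing reporter on an Apoe knockout background and had eaten a Western diet for 5 weeks. Tissue of both genotypes was digested in 1 µg/mL actinomycin D, which blocks transcription. The reporter and the deletion both depend on the Cdh5 driver, and littermates negative for Cdh5 set the YFP+ gate, so vessels that escaped the driver were not sampled. There were 4 droplet libraries, KO aorta, WT aorta, KO lung and WT lung, and the labels do not tie a cell to a mouse. With a single library per group there is no spread between replicates, no test could be made, genotype cannot be told apart from library, and every interval below is a 95% interval for counting error only.

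Caveolae are small flask-shaped pits of the plasma membrane that are unusually dense in vascular endothelium. Caveolins form the membrane scaffold, cavins coat it from the cytoplasm, and EHD ATPases gather at the neck, where they hold the pit at the surface. In some vascular beds a thin diaphragm of PLVAP spans the neck, as it does across fenestrae, and continuous capillaries are known to differ in whether they carry it.

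The deposited libraries held between 1034161 and 4483756 UMIs, and 401 to 1566 cells per library remained after filtering and removal of doublets, with median depths of 1645 to 2324 UMIs. No pair of libraries shared more than 2 cell barcodes. Transcripts of Pou5f1, the gene of Oct4, were at the counting floor: the deposited barcodes held 1 UMI in the KO aorta, 0 in the WT aorta, 1 in the KO lung and 2 in the WT lung, and a 3′ tag does not check an internal deletion. Cells were clustered within each tissue on genes other than the 8, and clusters were named from marker lists. Blood endothelial-like cells, all endothelial-like clusters but the lymphatic-like, numbered 1345 in the KO aorta, 354 in the WT aorta, 466 in the KO lung and 694 in the WT lung. All 12 general endothelial markers were detected in the blood endothelial-like cells of each library, and Pecam1 was found in 96.1%, 93.2%, 79.4% and 76.7% of them in the same order. Other markers were found in more of the lung cells: Cdh5 in 68.0%, 66.1%, 87.8% and 87.5%, Cldn5 in 68.7%, 68.1%, 92.9% and 91.8%, and Kdr in 8.10%, 9.04%, 40.3% and 37.2%. Transcripts of other cell types were also present in these cells. In the aorta fibroblast markers summed to 1210 CPM (UMIs of a gene for each 1000000 UMIs of the same cells) in KO against 445 CPM in WT, with 1 and 2 of 8 markers at 0. Smooth muscle markers summed to 795 CPM in KO and 532 CPM in WT, with 0 of 8 at 0 in each. Erythroid markers summed to 9.55 CPM in KO and 2818 CPM in WT, with 0 of 5 at 0 in each. At least 2 of them were found together in 3 of 1345 KO cells and 1 of 354 WT cells. In the lung alveolar type 2 and airway markers summed to 462 CPM in KO against 39.4 CPM in WT, with 0 and 2 of 6 at 0, and erythroid markers to 85.5 CPM in KO against 0.773 CPM in WT, with 1 and 4 of 5 at 0. The part of these transcripts in the genotype differences was not tested.

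Cav2 and Cav1 are neighbours on mouse chromosome 6, on the plus strand, and are shown first because the balance between them differed between vessel types and was lowest in lung aerocyte-like cells. Cav2 spans chr6:17281185-17289115 and Cav1 chr6:17306335-17341452 (mm10, GENCODE M21), with 17219 bases between them. An antisense gene, Gm15581, overlaps both, and without a stated strand setting in the counting its reads could not be told apart from theirs. The 250 bases before each transcript start (RefSeq, GRCm38.p6) are printed 5′ to 3′ for chr6:17280935-17281184 (Cav2) and chr6:17306085-17306334 (Cav1). Capitals mark the ETS core GGAAG on either strand, which reads CTTCC on the strand printed.
Cav2: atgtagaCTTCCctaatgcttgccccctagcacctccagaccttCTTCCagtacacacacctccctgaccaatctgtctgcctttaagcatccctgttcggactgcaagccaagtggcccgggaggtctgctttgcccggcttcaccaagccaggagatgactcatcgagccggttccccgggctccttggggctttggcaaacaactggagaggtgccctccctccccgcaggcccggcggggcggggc
Cav1: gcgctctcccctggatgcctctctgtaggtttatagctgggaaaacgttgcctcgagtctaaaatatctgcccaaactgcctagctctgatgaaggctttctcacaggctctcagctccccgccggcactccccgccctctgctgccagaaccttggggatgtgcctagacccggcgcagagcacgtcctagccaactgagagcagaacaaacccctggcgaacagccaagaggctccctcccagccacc

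The Cav2 window held 2 matches to the ETS core and none to the SOX core ACAAT or the KLF core CACCC, while the Cav1 window held none of the 3 on either strand. The window of a second annotated start of Cav1 held none of them either. Promoter windows were found for 6 of the 8 genes (8 windows, among them a pair for Cavin1 that differ by 2 bases). The Cavin2 window held 1 ETS, 2 SOX and 1 KLF matches, the Ehd4 window held 2 ETS and 3 KLF matches, of which an ETS and a KLF match share a letter, each Cavin1 window held 2 KLF matches and the Ehd2 window none. Among 32851 mouse promoter windows of the same length, 64.1% held the ETS core, 27.7% the SOX core and 52.0% the KLF core. The letters ATGCAAA, the start of the octamer that Oct4 binds, were in none of the 8 windows, against 4.12% of all windows. A match is a description of letters and not a binding site, and no match says only that these letters are not in this window.

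The caveolins, Cavin2, Ehd4 and Plvap stood lower in aortic than in lung blood endothelial-like cells, and Cavin3 stood higher, in both genotypes. Cav1, the scaffold protein without which endothelial caveolae do not form, stood at 1094 CPM in the KO aorta against 1652 CPM in the KO lung, and at 976 CPM in the WT aorta against 1647 CPM in the WT lung. The aortic values lay below the lung values without overlap of the intervals, and the ratios of aorta over lung were 0.662 (0.623 to 0.703) in KO and 0.593 (0.547 to 0.642) in WT. Cav2, which joins Cav1 in hetero-oligomers and depends on it to reach the surface, stood at 529 CPM in the KO aorta against 1346 CPM in the KO lung, and at 571 CPM in the WT aorta against 1553 CPM in the WT lung. Its ratios of aorta over lung were lower still, 0.393 (0.366 to 0.423) in KO and 0.368 (0.333 to 0.406) in WT, so that there were 2.07 Cav1 UMIs per Cav2 UMI in the KO aorta against 1.23 in the KO lung, and 1.71 in the WT aorta against 1.06 in the WT lung.

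The cavins went 3 ways between the tissues. Cavin1, without which caveolae do not form (chromosome 11, 100956733 to 100970887), stood at 519 CPM in the KO aorta against 529 CPM in the KO lung, and at 589 CPM in the WT aorta against 478 CPM in the WT lung. Cavin2, which helps bend the membrane (chromosome 1, 51289126 to 51302960, overlapped by the antisense gene 9330175M20Rik), stood at 1134 CPM in the KO aorta against 2041 CPM in the KO lung, and at 1042 CPM in the WT aorta against 1880 CPM in the WT lung. Cavin3, a cavin linked to the dynamics and traffic of caveolae (chromosome 7, 105480083 to 105482300, overlapped by Gm45667), stood at 473 CPM in the KO aorta against 121 CPM in the KO lung, and at 488 CPM in the WT aorta against 148 CPM in the WT lung. Cavin3 was thus 3.92-fold higher in the aorta in KO (3.22 to 4.81) and 3.31-fold higher in WT (2.78 to 3.94), Cavin2 was 0.556 and 0.554 of its lung level, and Cavin1 was close to its lung level, at ratios of 0.981 (0.886 to 1.09) in KO and 1.23 (1.09 to 1.39) in WT. Thinning to 1000 UMIs per cell, here and below, left out cells with fewer. After thinning, Cavin3 was found in 34.8% of cells in the KO aorta against 8.81% in the KO lung, and in 36.6% in the WT aorta against 10.1% in the WT lung (59.9%, 15%, 51.1% and 18.3% before thinning, at median depths of 2382, 1704, 2074.5 and 1618 UMIs). A non-endothelial lung cluster led by Lyz2 and Chil3, given as a rough guide to free RNA, held a Cavin3 UMI in 5.56% of 18 KO cells and 0% of 15 WT cells. It was a mixture: macrophage markers summed to 2465 CPM in KO and 15465 CPM in WT, erythroid markers to 298594 and 54248 CPM, and alveolar type 2 and airway markers to 306016 CPM in KO and 0 in WT.

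Of the 2 EHD ATPases, Ehd4 followed the caveolins and Ehd2 did not. Ehd2, which rings the caveolar neck (chromosome 7, 15946958 to 15967567), stood at 197 CPM in the KO aorta against 189 CPM in the KO lung, and at 212 CPM in the WT aorta against 145 CPM in the WT lung. Ehd4, a relative of Ehd2 that acts in endocytic recycling (chromosome 2, 120089175 to 120154606), stood at 1047 CPM in the KO aorta against 1977 CPM in the KO lung, and at 990 CPM in the WT aorta against 2027 CPM in the WT lung. Plvap, the protein of the diaphragms (chromosome 8, 71497765 to 71511752, overlapped on the other strand by Gtpbp3), stood at 674 CPM in the KO aorta against 1241 CPM in the KO lung, and at 415 CPM in the WT aorta against 1165 CPM in the WT lung. Ehd4 and Plvap were lower in the aorta in each genotype, with ratios of 0.529 (0.50 to 0.560) and 0.543 (0.506 to 0.583) in KO, and 0.488 (0.452 to 0.528) and 0.356 (0.316 to 0.40) in WT. Ehd2 had ratios of 1.04 (0.879 to 1.24) in KO and 1.46 (1.18 to 1.80) in WT.

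**Figure D1:**
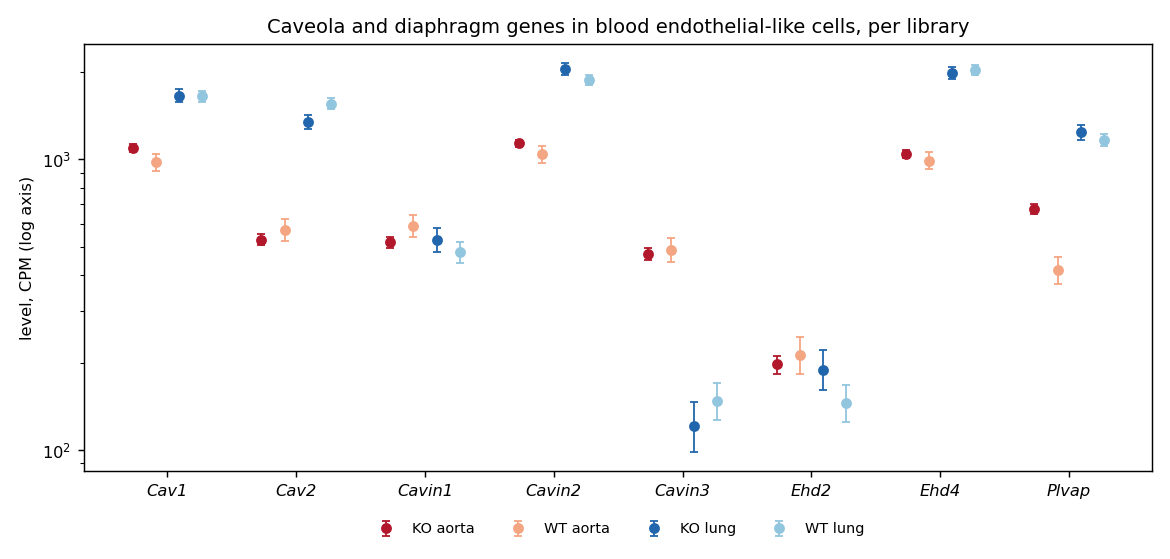
Level of each gene in blood endothelial-like cells of the 4 libraries, in CPM on a log axis; points are library values and bars are exact 95% Poisson intervals, which cover counting error only. Cavin3 stands at 473 and 488 CPM in the KO and WT aorta, above 121 and 148 CPM in the KO and WT lung, whereas Cav2 stands lower in the aorta.

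By a fold of at least 2, taken as a description of size, 1 member was higher (Cavin3) and 1 lower (Cav2) in the KO aorta than in the KO lung. Of all 3250 genes compared in KO, 8.37% passed this size upward and 17% downward. In WT, 1 member was higher (Cavin3) and 3 were lower (Cav2, Ehd4 and Plvap), where 8.45% of 3220 genes passed it upward and 16.1% downward. The median log2 ratio of the 8 members was -0.72 in KO and -0.80 in WT, beside -0.10 and -0.11 for all genes compared. The tissues hold different mixtures of vessel types, and the libraries of the tissues differ in the naming of genes and in depth, so the tissue and the library cannot be told apart.

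In the lung, Plvap divided the capillaries sharply. Lung capillaries are built of aerocytes, large thin cells specialised for gas exchange, and of general capillary cells. In the KO lung, aerocyte-like cells held 6 Plvap UMIs in 96 cells (29.7 CPM) against 607 UMIs in 188 general capillary-like cells (1738 CPM). In the WT lung they held 4 UMIs in 126 cells (13.0 CPM) against 729 UMIs in 242 general capillary-like cells (1655 CPM). The aerocyte-like level was 0.0171 of the general capillary-like level in KO (0.00624 to 0.0374) and 0.00784 of it in WT (0.00213 to 0.0202), although general capillary-like cells were the shallower, at median depths of 1767 and 1681.5 UMIs against 1863.5 and 2249 UMIs in aerocyte-like cells. The share of aerocyte-like cells with a Plvap UMI was 5.21% in KO (1.71 to 11.7) and 2.38% in WT (0.494 to 6.80), against 77.1% and 74.8% of general capillary-like cells. The non-endothelial Lyz2 cluster, with median depths of 3394 and 1823 UMIs, held a Plvap UMI in 5.56% of 18 KO cells and 6.67% of 15 WT cells. These cells are too few, too mixed and of too unlike a depth to tell whether Plvap in aerocyte-like cells was above free RNA. With doublets kept the aerocyte-like level was 80 CPM in KO and 35.8 CPM in WT, and the ratios were 0.0432 and 0.0208. With at least 1000 UMIs and at most 10% mitochondrial UMIs the KO ratio was 0.00591. With the Plvap UMIs of the top cell of each class left out the WT ratio was 0.00401.

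Aerocyte-like cells kept the caveola genes while holding very few UMIs of the diaphragm gene. Cav1 stood at 1227 CPM in aerocyte-like against 1901 CPM in general capillary-like cells of the KO lung, and at 1240 against 2082 CPM in the WT lung. Cav2 went the other way, at 1830 against 1322 CPM in KO and 2242 against 1558 CPM in WT. The ratios of aerocyte-like over general capillary-like cells were 0.645 (0.555 to 0.748) and 0.595 (0.527 to 0.672) for Cav1 in KO and WT, and 1.38 (1.20 to 1.59) and 1.44 (1.29 to 1.60) for Cav2. Aerocyte-like cells therefore held 0.670 Cav1 UMIs per Cav2 UMI in KO (0.568 to 0.789) and 0.553 in WT (0.487 to 0.627), against 1.44 and 1.34 in general capillary-like cells. Aerocyte-like cells were below 1 Cav1 UMI per Cav2 UMI, and venous-like cells, with 1.60 in KO and 1.39 in WT, were above it.

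Of the other members, Cavin3 differed most between aerocyte-like and general capillary-like cells. Cavin3 stood at 163 CPM in aerocyte-like against 54.4 CPM in general capillary-like cells of the KO lung, 3.00-fold higher (1.66 to 5.59), and at 185 against 72.7 CPM in the WT lung, 2.55-fold higher (1.62 to 4.06). Ehd4 stood at 2240 against 2101 CPM in KO and 2557 against 2044 CPM in WT, with ratios of 1.07 (0.946 to 1.20) and 1.25 (1.14 to 1.38). Cavin1 had ratios of 0.665 (0.502 to 0.872) in KO and 0.863 (0.687 to 1.08) in WT, Cavin2 of 0.792 (0.698 to 0.898) and 1.00 (0.905 to 1.11), and Ehd2 of 1.39 (0.933 to 2.06) and 0.917 (0.610 to 1.37). At 2-fold, 1 member was thus higher (Cavin3) and 1 lower (Plvap) in each genotype, beside 9.51% higher and 12.4% lower of 3164 genes in KO and 10.4% higher and 9.9% lower of 3314 genes in WT.

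**Figure D2:**
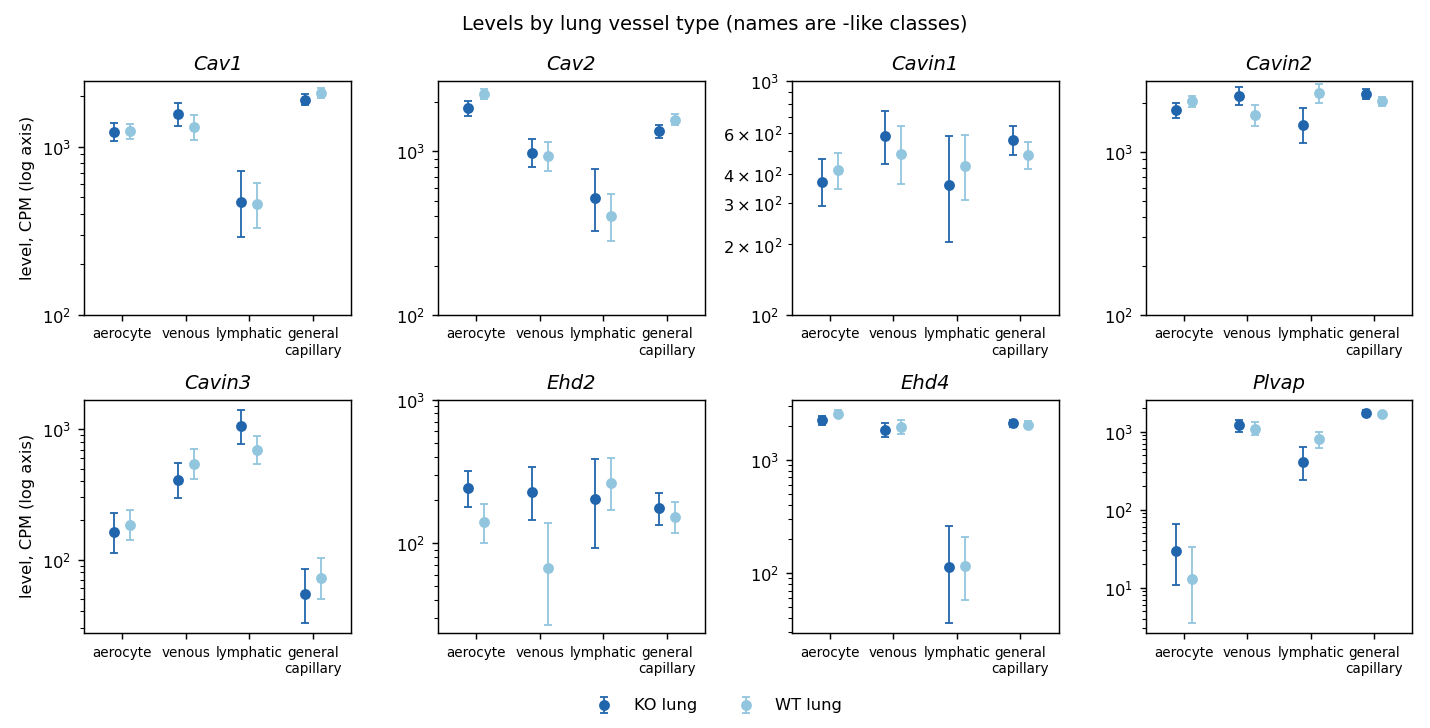
Level of each gene by lung vessel type in KO and WT lung, in CPM on a log axis whose range differs between panels; points are sums over the cells of a type and bars are exact 95% Poisson intervals for counting error. Plvap is near 0 in aerocyte-like cells (29.7 and 13.0 CPM), Ehd4 is low in lymphatic-like cells (112 and 116 CPM), and Cavin3 is lowest in general capillary-like cells (54.4 and 72.7 CPM).

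Venous-like cells of the lung held more Cavin3 than general capillary-like cells, and less Cav2 and Plvap. Cavin3 stood at 408 CPM in venous-like against 54.4 CPM in general capillary-like cells of the KO lung, and at 545 against 72.7 CPM in the WT lung, which is 7.51-fold higher in each (4.28 to 13.6 in KO and 4.79 to 12.0 in WT). A single cell held 57.9% of the WT venous-like Cavin3 UMIs. With the Cavin3 UMIs of the top cell of each class left out the WT ratio was 3.49 and the KO ratio 7.03. After thinning the WT ratio was 4.69. Smooth muscle markers summed to 152 CPM in KO and 1435 CPM in WT in the venous-like cells, and their part in these values was not tested. Cav1 had ratios of venous-like over general capillary-like cells of 0.825 (0.691 to 0.979) in KO, or 1.02 after thinning, and 0.625 (0.518 to 0.749) in WT. Those of Cav2 were 0.740 (0.592 to 0.918) and 0.602 (0.482 to 0.745), and those of Plvap were 0.689 (0.564 to 0.836) and 0.659 (0.536 to 0.804). Cavin3 was the member at least 2-fold higher in KO, where 4.09% of 2715 genes were, and again in WT, where 5.08% of 2953 genes were. Ehd2 was at least 2-fold lower in WT on 7 venous-like UMIs, at 67.0 against 152 CPM, beside 12.2% of all genes compared, and had a ratio of 0.833 after thinning. In KO it stood at 228 against 175 CPM.

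Lymphatic-like cells of both tissues held little Ehd4. It stood at 110 CPM in lymphatic-like against 1047 CPM in blood endothelial-like cells of the KO aorta, at 119 against 990 CPM in the WT aorta, and at 116 against 2027 CPM in the WT lung. The ratios were 0.105 (0.0759 to 0.142), 0.120 (0.0573 to 0.222) and 0.0574 (0.0286 to 0.103) in the same order, and the 19 lymphatic-like cells of the KO lung, too few to compare, stood at 112 CPM. An Ehd4 UMI was found in 16.4% of lymphatic-like cells of the KO aorta, 20.5% of those of the WT aorta, 15.8% of those of the KO lung and 17.1% of those of the WT lung. The non-endothelial Lyz2 cluster held one in 16.7% of 18 KO cells, with 69.2% of the UMIs in 1 cell, and in 0% of 15 WT cells. These cells are too few to tell whether the lymphatic-like share in the lung was above free RNA.

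Cavin2 and the caveolins set lymphatic-like cells of the 2 tissues apart in different ways. Cavin2 stood at 2149 CPM in lymphatic-like against 1134 CPM in blood endothelial-like cells of the KO aorta, at 2578 against 1042 CPM in the WT aorta, and at 2283 against 1880 CPM in the WT lung, so the lymphatic-like level was the higher in each of these libraries. The 19 lymphatic-like cells of the KO lung stood at 1460 CPM, below the 2041 CPM of its blood endothelial-like cells. In the WT lung Cav1 stood at 455 CPM in lymphatic-like against 1647 CPM in blood endothelial-like cells, and Cav2 at 402 against 1553 CPM. The ratios were 0.276 (0.199 to 0.373) for Cav1 and 0.259 (0.182 to 0.356) for Cav2, whereas in the aorta Cav1 had ratios of 0.582 (0.510 to 0.661) in KO and 0.864 (0.668 to 1.10) in WT, and Cav2 of 1.07 and 0.977. Cavin3 was 4.73-fold higher in lymphatic-like cells of the WT lung (698 against 148 CPM, 3.52 to 6.28) and had ratios of 1.19 in the KO aorta and 0.974 in the WT aorta. At 2-fold, Ehd4 was the member lower in the KO aorta, where 9.16% of 3080 genes were lower, and 0 members were higher, where 10.3% were. Cavin2 was the member higher and Ehd4 the member lower in the WT aorta, where 15.2% of 3053 genes were higher and 12.6% lower. In the WT lung 1 member (Cavin3) was higher and 3 (Cav1, Cav2 and Ehd4) were lower, where 11.5% of 3233 genes were higher and 17.7% lower.

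Ehd4 and Plvap were also low in a capillary-like cluster of the aorta, which is led by Rgcc and Gpihbp1 and numbered 103 KO and 60 WT cells. Ehd4 stood at 93.1 CPM in these cells against 1088 CPM in the other blood endothelial-like cells of the KO aorta (15 and 4038 UMIs), and at 50 against 1086 CPM in the WT aorta (4 and 850 UMIs). Plvap stood at 161 against 696 CPM in KO and 25.0 against 455 CPM in WT, where the capillary-like level rests on 2 UMIs. The ratios were 0.0856 (0.0478 to 0.141) and 0.0460 (0.0125 to 0.118) for Ehd4 in KO and WT, and 0.232 (0.151 to 0.341) and 0.0549 (0.00663 to 0.200) for Plvap, so that Ehd4 was low in capillary-like cells of the aorta and high in those of the lung. The low values moved with the settings. In KO the Plvap ratio was 0.145 with the Plvap UMIs of the top cell of each class left out. It was 0.427 with at least 1000 UMIs and at most 10% mitochondrial UMIs. The KO Ehd4 ratio was 0.132 under the same stricter limits and 0.0539 after thinning. In WT the Plvap ratio was 0.0294 without the UMIs of the top cells, and the Ehd4 ratio was 0.0803 under the stricter limits. The cells are shallower than the rest, at median depths of 1339 UMIs in KO and 1109.5 UMIs in WT. Of the caveola genes proper, Cav2 was 2.37-fold higher (2.03 to 2.75) and Ehd2 2.44-fold higher (1.89 to 3.11) in capillary-like cells of the KO aorta, while in the WT aorta they had ratios of 1.08 (0.787 to 1.45) and 0.810 (0.434 to 1.40), and Cavin3 was lower, at 0.462 (0.275 to 0.731). At 2-fold, 2 members were higher and 2 lower in KO, where 13.6% of 2985 genes were higher and 13.4% lower, and 0 were higher and 3 lower in WT, where 14.6% of 2807 genes were higher and 20% lower.

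**Figure D3:**
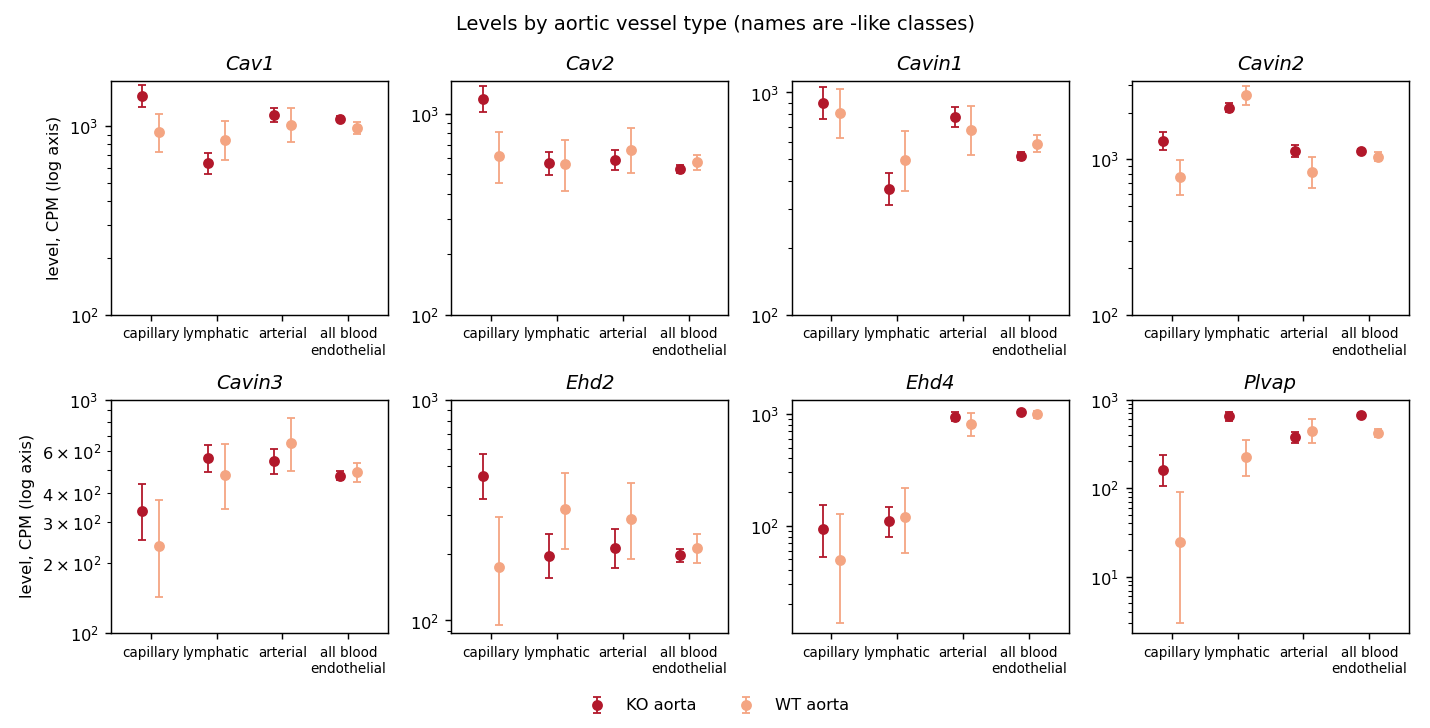
Level of each gene by aortic vessel type in KO and WT aorta, in CPM on a log axis whose range differs between panels; points are sums over the cells of a type and bars are exact 95% Poisson intervals for counting error. Ehd4 is low in capillary-like (93.1 and 50 CPM) and lymphatic-like cells (110 and 119 CPM), and Cavin2 is highest in lymphatic-like cells (2149 and 2578 CPM).

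Across the aortic blood endothelial-like clusters the level of Plvap ranged widely. It was highest in an unnamed cluster led by Lrg1, Plac8 and Abcg2, at 2076 CPM in KO and 2002 CPM in WT. This was above the pooled general capillary-like level of the lung (1738 and 1655 CPM) but not above every lung cluster. The largest general capillary-like cluster stood at 2210 CPM in KO, and the unnamed lung cluster led by Ivns1abp and Lpl at 2244 CPM in KO and 2523 CPM in WT. The next highest value in the KO aorta was 1224 CPM in an unnamed cluster led by Lcn2, Serpina3n and Dcn, of 98 KO and 4 WT cells. The remaining KO clusters lay between 161 and 439 CPM, and those of WT between 25.0 and 447 CPM. In the arterial-like cluster Plvap stood at 373 CPM in KO (321 to 432) and 447 CPM in WT (322 to 604), with a UMI in 36.0% and 36.8% of the cells. Ehd4 was high in the Lrg1 cluster too, at 1314 CPM in KO and 1472 CPM in WT, with intervals that overlap those of the Klk10 cluster in KO (1302 CPM) and of the Pam and Isl1 cluster in WT (1368 CPM). Cavin2 was highest in the Lrg1 cluster among blood endothelial-like clusters, at 2054 and 1462 CPM. The same cluster had the lowest Cav1 in the aorta, at 593 CPM in KO and 519 CPM in WT. Cav1 was highest among KO clusters in the capillary-like (1440 CPM) and next in the Pam and Isl1 cluster (1410 CPM), which do not differ beyond their intervals, and highest in WT in the Pam and Isl1 cluster (1565 CPM).

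Cavin3 ranged more widely over the lung clusters than over the aortic ones. Over the KO aortic clusters it ranged between 335 and 631 CPM and over the WT ones between 237 and 649 CPM. In the lung it ranged between 8.07 CPM, which is 1 UMI, and 408 CPM over the KO clusters, and between 67.4 and 545 CPM over the WT clusters, with the venous-like cluster highest in each. The median cluster stood at 439 CPM in the KO aorta against 83.9 CPM in the KO lung, and at 493 CPM in the WT aorta against 111 CPM in the WT lung. The venous-like lung cells were the blood cluster whose Cavin3 level lay inside the aortic range in each genotype. Without the Cavin3 UMIs of its top cell, however, the WT value was 230 CPM, below the lowest WT aortic cluster. Lung lymphatic-like cells stood at 1056 CPM in KO, from 19 cells, too few to compare, and at 698 CPM in WT. The WT value was near the 649 CPM of the highest WT aortic cluster of at least 20 cells. It was below the 886 CPM of the 4 WT aortic cells of the Lcn2 cluster.

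Between genotypes, Plvap was higher in the KO aorta, and the 7 other members lay within 1.5-fold of WT. Plvap stood at 674 CPM in KO (648 to 700) against 415 CPM in WT (373 to 460), from 2609 and 358 UMIs, and was found in 49.7% of KO and 31.1% of WT cells (33.5% and 24.1% after thinning). The intervals did not overlap, and the ratio was 1.62 (1.45 to 1.82). Plvap was the member at least 1.5-fold higher, where 3.08% of 2959 genes were, and no member was at least 1.5-fold lower, where 2.81% were. The median log2 ratio of the 8 members was 0.02, beside 0.03 for all genes compared.

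The size of the Plvap difference in the aorta moved with the clusters, cells and depth that entered the sum. The Lrg1 cluster supplied 32.0% of the Plvap UMIs of KO and 52.8% of those of WT, and its level was alike, with a ratio of 1.04 (0.885 to 1.22). The Lcn2 cluster supplied 26.8% of the KO UMIs from 7.29% of the KO cells, against 0.559% of the WT UMIs. Its KO cells are deep, at a median of 5418.5 UMIs against 2382 UMIs over all KO blood endothelial-like cells of the aorta. By level, its KO cells stood at 1224 CPM of Plvap against 674 CPM over all those cells. Its WT share is 2 UMIs from 4 cells. Its KO cells held 3499 CPM of fibroblast markers. The Plvap ratio came below 1.5 under 4 alternatives: 1.20 with clusters weighted alike (588 against 489 CPM), 1.43 at 1000 UMIs per cell (626 against 438 CPM), 1.34 without cells that held 2 markers of a non-endothelial class (640 against 478 CPM, removing 371 KO and 71 WT cells), and 1.40 without the 2 clusters of at least 20 KO but under 20 WT cells (600 against 427 CPM). The last of these was chosen after seeing the data. Plvap stayed above a ratio of 1 in all 18 alternatives. In log2, its interval was 0.243 to 0.797 when thinned and 0.242 to 0.605 without the cells that held 2 such markers. Without the 2 clusters it was 0.325 to 0.658, and no interval was made with clusters weighted alike.

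Cluster by cluster, Plvap was higher in KO in 5 of 7 blood endothelial-like clusters with at least 20 cells per library, beyond the interval in 3. These counts include the capillary-like cluster, where Plvap had fewer than the 30 UMIs required for a comparison. In the cluster led by Cxcl2 and Fos it stood at 400 CPM in KO against 102 CPM in WT, with a UMI in 101 of 196 KO and 8 of 54 WT cells, and a ratio of 3.90 (2.51 to 6.40). In the Pam and Isl1 cluster it stood at 385 CPM in KO and 187 CPM in WT, a ratio of 2.07 (1.26 to 3.59) that was 1.68 (0.794 to 4.10) after thinning. In capillary-like cells it stood at 161 CPM in KO and 25.0 CPM in WT, a ratio of 6.46 (1.62 to 56.1) on 26 and 2 UMIs. The KO level there was 99.3 CPM without the Plvap UMIs of the top cell. The share of all genes at least 1.5-fold higher in KO was 8.45% in the Cxcl2 cluster, 17.7% in the Pam and Isl1 cluster and 19.1% in the capillary-like cluster. In the last, the genes compared leave out Plvap. In the Cxcl2 cluster fibroblast markers summed to 1356 CPM in KO and 556 CPM in WT, and smooth muscle markers to 651 and 346 CPM. Their part in the Plvap difference was not tested. In the remaining clusters the ratio was 1.19 (0.836 to 1.75) in the Klk10 cluster, 0.835 (0.594 to 1.20) in the arterial-like and 0.981 (0.685 to 1.42) in the Thbs1 cluster. Lymphatic-like cells had 647 CPM in KO and 226 CPM in WT, a ratio of 2.86 (1.80 to 4.84), with 47.4% of the WT UMIs in 1 cell and beside 18.1% of all genes at least 1.5-fold higher there.

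**Figure D4:**
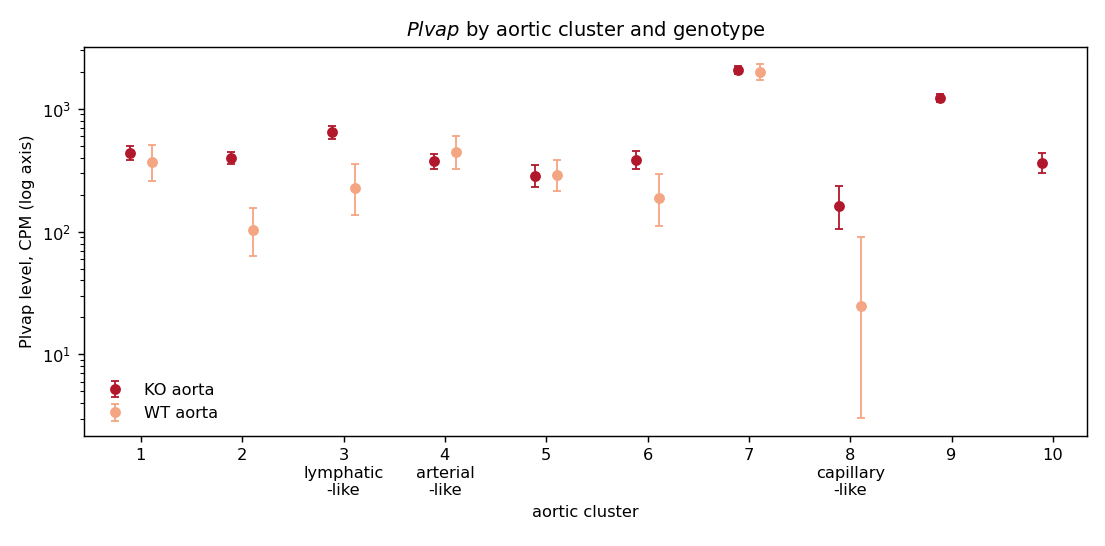
Plvap level in each aortic endothelial-like cluster with at least 20 cells in the library, KO and WT, in CPM on a log axis; bars are exact 95% Poisson intervals for counting error. The genotypes are alike in cluster 7, the Lrg1 cluster (2076 and 2002 CPM), and apart in cluster 2, the Cxcl2 cluster (400 and 102 CPM), while clusters 9 and 10 hold too few WT cells to compare.

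The caveolins and cavins differed little between genotypes over all aortic blood endothelial-like cells. Cav1 stood at 1094 CPM in KO and 976 CPM in WT, and Cav2 at 529 and 571 CPM. The ratios of KO over WT were 1.12 (1.04 to 1.21) for Cav1 and 0.926 (0.839 to 1.02) for Cav2. Cavin1 had a ratio of 0.881 (0.799 to 0.973), Cavin2 of 1.09 (1.01 to 1.17) and Cavin3 of 0.969 (0.871 to 1.08). Ehd2 and Ehd4 had ratios of 0.929 (0.789 to 1.10) and 1.06 (0.982 to 1.14). These are libraries of 1 each, so differences of this size have no replicate spread to be set against.

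In the aortic capillary-like cells the caveolins, Cavin2 and Ehd2 stood higher in KO. Cav1 stood at 1440 CPM in KO against 925 CPM in WT, Cav2 at 1185 against 612 CPM, Cavin2 at 1316 against 775 CPM and Ehd2 at 453 against 175 CPM. The ratios were 1.56 (1.19 to 2.05), 1.94 (1.41 to 2.71), 1.70 (1.27 to 2.29) and 2.59 (1.45 to 4.97) in the same order. Thinning to 1000 UMIs left 83 of 103 KO and 34 of 60 WT cells, those with enough UMIs. In them the ratios were above 1.5, at 1.91, 2.44, 1.53 and 4.37, though the last rests on 3 WT UMIs. Cavin1 had 900 CPM in KO and 812 CPM in WT, a ratio of 1.11 (0.821 to 1.51). Past 1.5-fold, 4 of the 6 members that could be compared were higher and 0 lower, where 19.1% of 1185 genes were higher and 12.7% lower, and their median log2 ratio was 0.70 beside 0.10 for all genes compared. These cells made up 6.58% of the kept cells of the KO aorta and 15% of those of the WT aorta. Erythroid markers summed to 43.4 CPM in KO and 30203 CPM in WT within the cluster, and their part in the difference was not tested. Of all 354 WT blood endothelial-like cells of the aorta, 1 held at least 2 erythroid markers.

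Over the 7 comparable aortic blood endothelial-like clusters, the capillary-like among them, the caveola genes went both ways. Cavin2 was higher in KO in 6 of 7 clusters, beyond the interval in 3, and lower beyond it in 1. Cav1 was higher in 5 of 7, beyond the interval in 2. Ehd4 was higher in 4 of 7, beyond the interval in 2. The Ehd4 count includes the capillary-like cluster, where its 15 KO and 4 WT UMIs were under the 30 UMIs required for a comparison. Cav2 was lower in KO in 5 of 7, beyond the interval in 1, and higher beyond it in 1. Cavin1 was lower in 4 of 7, beyond the interval in 0, and Cavin3 in 3 of 7, beyond it in 1. For Ehd2 it was 4 of 7, beyond the interval in 1, with 1 higher beyond it. Ehd2 was lower in KO in the Pam and Isl1 cluster, at 156 CPM against 301 CPM in WT, with a ratio of 0.518 (0.326 to 0.841), beside 8.68% of all genes at least 1.5-fold lower there. In lymphatic-like cells it stood at 197 CPM in KO and 321 CPM in WT, a ratio of 0.614 (0.391 to 0.990), beside 14.3% of all genes.

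**Figure D5:**
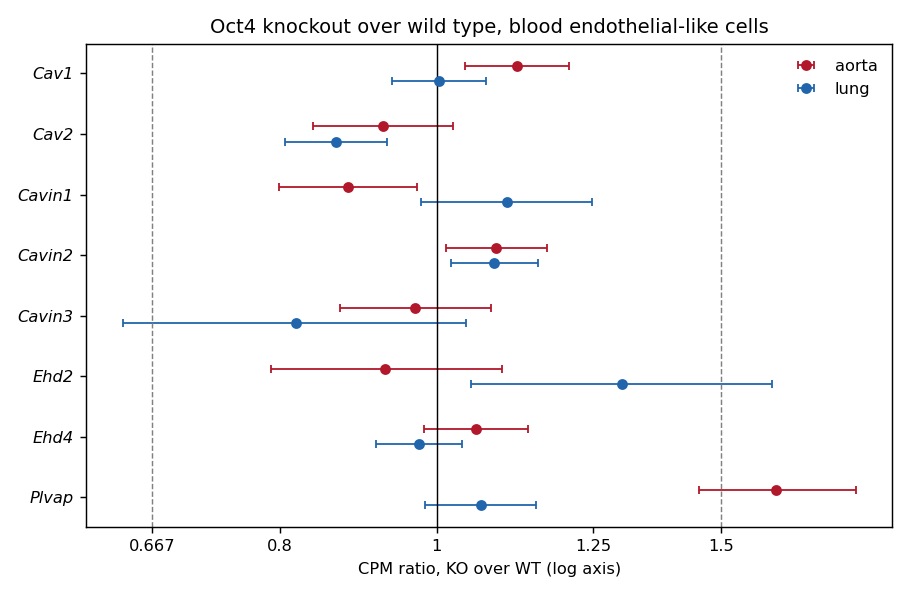
Ratio of KO over WT for each gene in aortic and lung blood endothelial-like cells, on a log axis; bars are exact conditional 95% intervals for counting error, the solid line marks equality and the dashed lines 1.5-fold either way. Plvap in the aorta lies past 1.5-fold (1.62), and in the lung it lies at 1.06.

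In the lung no member reached 1.5-fold between genotypes, where 2.69% of 3341 genes did upward and 1.74% downward. Cav1 stood at 1652 CPM in KO and 1647 CPM in WT, a ratio of 1.00 (0.938 to 1.07). Cav2 stood at 1346 CPM in KO and 1553 CPM in WT, a ratio of 0.866 (0.806 to 0.931). Over 8 clusters it was lower in KO in 5, beyond the interval in 3 of them. Plvap stood at 1241 CPM in KO and 1165 CPM in WT, a ratio of 1.06 (0.984 to 1.15). Cavin1 and Cavin2 had ratios of 1.11 (0.978 to 1.25) and 1.09 (1.02 to 1.15), Cavin3 of 0.818 (0.639 to 1.04) and Ehd4 of 0.975 (0.917 to 1.04). Ehd2 stood at 189 CPM in KO and 145 CPM in WT, a ratio of 1.30 (1.05 to 1.61). The median log2 ratio of the members was 0.05, beside 0.02 for all genes compared.

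Single lung clusters held larger differences. Plvap stood at 2210 CPM in KO and 1546 CPM in WT in the largest general capillary-like cluster, a ratio of 1.43 (1.24 to 1.65), and had a ratio of 0.869 (0.723 to 1.04) in another general capillary-like cluster, led by interferon-induced genes such as Iigp1 and Isg15. Ehd2 stood at 242 CPM in KO and 140 CPM in WT in aerocyte-like cells, a ratio of 1.74 (1.13 to 2.68), and at 228 and 67.0 CPM in venous-like cells, a ratio of 3.40 (1.42 to 9.35) that was 1.37 (0.348 to 5.66) after thinning. Cavin1 stood at 345 CPM in KO and 568 CPM in WT in an unnamed cluster led by Ivns1abp and Lpl, a ratio of 0.608 (0.275 to 1.21) on 10 and 52 UMIs, beside 15.3% of all genes at least 1.5-fold lower there. The share of all genes at least 1.5-fold higher in KO was 9.3% in the aerocyte-like cluster and 14.1% in the venous-like cluster. The difference between the tissues in the genotype ratio of Plvap was not tested, for want of replicates.

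Other genes of caveolae and of the neighbouring uptake routes lay mostly within 1.5-fold between genotypes. Of 10 accessory genes of caveolae, 3 had enough counts in the aorta, and 0 were 1.5-fold higher or lower. Pacsin2, a membrane-bending protein that works with caveolae, stood at 88.3 CPM in KO and 96.2 CPM in WT, Ehd1, a relative of Ehd2, at 147 and 145 CPM, and Dnm2, the dynamin that cuts vesicles free, at 52.4 and 52.2 CPM. The muscle forms Cav3 and Cavin4 held 0 UMIs in the blood endothelial-like cells of the aorta. Of 6 measured cargo and partner genes in the aorta 1 was lower, Cd36, a fatty acid receptor found in caveolae, at 230 CPM in KO and 399 CPM in WT, a ratio of 0.578 (0.509 to 0.656). Cd36 is also a capillary marker and a leading gene of the aortic capillary-like cluster. That cluster made up 7.66% of the blood endothelial-like cells in the KO aorta and 16.9% in the WT aorta. Its part in the Cd36 ratio was not tested. Scarb1, the receptor for HDL, had a ratio of 0.698 (0.508 to 0.973), Nos3, the nitric oxide synthase that binds Cav1, of 0.807 (0.681 to 0.960), and the water channel Aqp1 of 1.11 (1.05 to 1.18). Acvrl1, a receptor for BMP9, was at 1.05 (0.877 to 1.27). The median log2 ratio of the cargo list was -0.21.

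Clathrin coat and flotillin genes, which serve other uptake routes, lay within 1.5-fold too. Of 8 clathrin coat genes in the aorta 0 reached 1.5-fold, with a median log2 ratio of -0.09, and intervals lay below 1 for Ap2a2, at a ratio of 0.719 (0.538 to 0.972), and Cltb, at 0.857 (0.751 to 0.981). The highest ratio was that of the clathrin heavy chain Cltc, at 1.22 (0.938 to 1.61), with an interval across 1. Flot1 and Flot2 had ratios of 1.13 (0.875 to 1.49) and 0.910 (0.658 to 1.28). In the lung 0 of 3 accessory, 0 of 5 cargo, 0 of 8 clathrin and 0 of 1 flotillin genes reached 1.5-fold, and the medians were 0.07, 0.19, 0.11 and 0.13. Aqp1 in the lung stood at 2200 CPM in KO and 1781 CPM in WT, a ratio of 1.24 (1.16 to 1.31), and Acvrl1 at 1110 and 985 CPM, a ratio of 1.13 (1.04 to 1.23). Cd36 stood at 2411 and 2424 CPM there, a ratio of 0.995 (0.941 to 1.05).

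Across 36 groups of cells, each 1 cluster in 1 library with at least 20 endothelial-like cells (18 per tissue), the 8 members did not vary as a single set. These correlations are descriptions on log2(CPM + 10), and the groups of a library share its depth and processing. Cav1 and Cav2 had a Pearson r of 0.75 over all groups, 0.51 in the aorta and 0.69 in the lung. Cav1 and Cavin3 had an r of -0.72, and Cav1 and Cavin1, whose proteins need each other to build caveolae, an r of 0.11. Ehd4 followed Cav1 in the lung, with an r of 0.83, but not in the aorta, with 0.07. Cavin3 and Plvap had an r of 0.79 in the aorta and -0.26 in the lung.

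Among 1509 genes, those most like Cav1 over the 36 groups were Adgre5 (r = 0.79), Epas1 (0.79), Psmb10 (0.77), Bcl2l1 (0.77) and Rab1a (0.76). Among those most like Plvap were Foxp1 (0.77), Igfbp4 (0.75), Il6st (0.75) and Prex2 (0.73). No member was among the 5 genes most like either, but Cav2 had an r of 0.748 with Cav1, beside 0.756 for Rab1a. The r could differ between tissues. Epas1 had 0.44 with Cav1 in the aorta and 0.87 in the lung, and Prex2 had 0.32 and 0.88 with Plvap. Bcl2l1 with Cav1 and Il6st with Plvap were higher in the aorta, at 0.72 and 0.86, against 0.65 and 0.74 in the lung. After thinning to 1000 UMIs, a blood endothelial-like cell held UMIs of a median of 4 members in the KO aorta, 3 in the WT aorta, 4 in the KO lung and 4 in the WT lung. The share of cells with at least 5 members was 22.5% in the KO aorta against 44.0% in the KO lung, and 22.1% in the WT aorta against 41.2% in the WT lung.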

How the data were processed

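The deposited values are raw whole-number counts of UMIs by gene and cell. Per the submitters' processing notes the authors used Cell Ranger and mm10; the sources used here give no version, annotation or strand setting. Matrices had 31053 rows; aortic rows carry symbols, and of the lung Ensembl identifiers 30934 matched GENCODE M21 and 119 did not. Rows of the same symbol were summed (36 in the aorta, 28 in the lung).

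Barcodes under 500 UMIs or over 15% mitochondrial UMIs were left out: 54 in the KO aorta, 45 in the WT aorta, 21 in the KO lung and 25 in the WT lung. Scrublet then removed 3, 3, 4 and 10 doublets (0.191%, 0.743%, 0.787% and 1.29%). Free RNA was not corrected. Within each tissue, counts scaled to 10000 per cell and log-transformed were clustered in scanpy 1.11.5 without the 8 genes (2000 variable genes, 30 principal components, 15 neighbours, Leiden resolution 1). A cluster was named from marker lists with at least 3 own markers among its 10 leading genes, taken against all cells or against other classes, and no more markers of another class; other clusters stayed unnamed, so names may differ from the authors'.

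UMIs were summed per class and library. Intervals at 95% are exact: Poisson for CPM, conditional for ratios, Clopper-Pearson for shares. They cover counting error only. Genes entered a comparison at a mean of 50 CPM and 30 UMIs in both libraries together. A difference of 1.5-fold between genotypes, or 2-fold between tissues or vessel types, described size, and no test across cells was run. The calculation was tested on simulated data drawn with counting error only. Those data had no spread between cells or mice, so they cannot show how the intervals hold under such spread. Classes and clusters under 20 cells were not compared. Where the top cell's UMIs were left out, a gene's highest count in 1 cell was taken off each class, and the class total was kept. Of each list of other genes the 2 highest and 2 lowest per genotype comparison are named, or all of lists of 4 or fewer, ranked by the bound nearest to 1. The members and lists were chosen with earlier results of these data known. The share of 3′ sequence of the 8 genes found in other genes' transcripts was 0% for each. A gene that the rule for likeness to Plvap names is not reported here. Alternatives are given with their effects in the closing section.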

Additional observations from a re-analysis of the deposited data

How the results depend on the processing

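The alternatives changed cell filters, scalings, groupings, clusterings or the minimum level of a gene. The last kind (no minimum, or a mean of at least 100 CPM) cannot change a gene's ratio, so ratios under it stayed by construction. Of 1269 values recomputed for 121 results, 1166 stayed within the counting interval (for counts of members, within 1.5 times), 103 moved, and 0 of the values past the size threshold changed side of 1. Counting also ratios inside that size, 20 of 108 ratios and medians changed side under at least 1 alternative. Among them, Cav2 in KO over WT aorta, 0.926, was 1.06 with clusters weighted alike and 1.08 thinned, and the log2 ratio of Cavin1 in WT lung venous-like over general capillary-like cells, 0.02, was between -0.47 and -0.03 in its 8 alternatives. The count of members at least 1.5-fold apart between genotypes in the aorta, 1 (Plvap), was 0 with clusters weighted alike, thinned to 1000 UMIs per cell, without cells with 2 markers of a non-endothelial class, and without the clusters of under 20 WT cells, and the median log2 ratio of the members there was 0.20 when thinned, against 0.02. The median log2 ratio of aorta over lung in KO, -0.72, was -0.61 scaled to the median ratio of the genes compared, -0.58 with haemoglobin, mitochondrial and ribosomal genes out of the total, -0.63 as the mean CPM over single cells and -0.54 over all kept cells. In WT, -0.80, it was -0.69, -0.66 and -0.67 under the first, second and last of these. The cause of these shifts was not tested. Cavin3 in WT lung venous-like over general capillary-like cells, 7.51-fold, was 3.49-fold with the Cavin3 UMIs of the top cell of each class left out. No paired analysis was possible because each group is 1 library. Low counts limit the values of Ehd4 and Plvap in aortic capillary-like cells and of Plvap in lung aerocyte-like cells, which rest on 2 to 26 UMIs per library.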
